A study of Arabidopsis thaliana with 15 samples.

Results

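The levels of 10 genes of DNA replication and of the S and G2 phases of the cell cycle were followed across 5 genotypes of Arabidopsis thaliana. They are MCM2, MCM3, MCM4, MCM5, MCM6, MCM7, PCNA1, PCNA2, TSO2 and CDKB1;1, and they were taken from the table of gene counts by their locus identifiers. All 10 were found among 33601 genes, and all 10 were among the 18935 genes tested, which had a level above 1 CPM (the count scaled to a fixed library total) in at least 3 of the 15 libraries. The groups were ref4-1, ref4-3, cdk8-1, the double mutant ref4-3 cdk8-1 and the wild type (WT), with 3 libraries each, all in the Columbia-0 background. ref4-1 and ref4-3 are alleles of MED5B, and cdk8-1 is an allele of CDK8. Both proteins belong to Mediator, the large coactivator between DNA-bound regulators and RNA polymerase II. MED5B sits in its tail, and CDK8 is a cyclin-dependent kinase in a module that can leave the complex. The ref4 alleles are point mutations, which a transcript level does not check. Plants grew at 23 C with 16 h of light and 8 h of darkness, and whole rosettes of 20 days were taken 6.5 h after subjective dawn. Each library was made from 5 rosettes of different pots, pooled before RNA extraction, so differences between single plants and between leaves are averaged. Every p-value below therefore refers to the variation among pools of rosettes.

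MCM2 to MCM7 form the ring-shaped helicase that is loaded on replication origins in G1 and unwinds DNA in S phase. PCNA1 and PCNA2 encode the sliding clamp that holds DNA polymerases on their template. TSO2 encodes a small subunit of ribonucleotide reductase, the enzyme that makes deoxyribonucleotides, and CDKB1;1 encodes a plant-specific cyclin-dependent kinase that acts around the G2 to M transition. In leaves the MCM genes, the PCNA genes and TSO2 are known as marks of dividing and endoreduplicating cells. Many of the genes studied are targets of E2F transcription factors, which the retinoblastoma-related protein RBR1 holds back outside S phase.

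The genes lie on all 5 chromosomes. The positions are those of TAIR10.1, RefSeq's assembly, matched by locus identifier. MCM2 (AT1G44900) is at chr1:16970214-16974753 on the plus strand and MCM3 (AT5G46280) at chr5:18769649-18773706 on the minus strand. MCM4 (AT2G16440) is at chr2:7126279-7130729 and MCM5 (AT2G07690) at chr2:3522984-3527500, both on the minus strand. MCM6 (AT5G44635) is at chr5:18006212-18010667 on the minus strand and MCM7 (AT4G02060) at chr4:900636-905591 on the plus strand. PCNA1 (AT1G07370) is at chr1:2263037-2264553 on the plus strand and PCNA2 (AT2G29570) at chr2:12649906-12651753 on the minus strand. TSO2 (AT3G27060) is at chr3:9979841-9981620 on the minus strand and CDKB1;1 (AT3G54180) at chr3:20059671-20061488 on the plus strand.

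Among the 10 genes 5 carry an E2F motif in the 250 bases before their annotated start. The letters searched on both strands were TTTCCCGC, TTTGCCGC, TTTCGCGC and TTTGGCGC. These 5 genes are MCM2 to MCM6, and a stretch of 60 bases around each match is shown because the shared motif can be read from it. Each sequence runs 5′ to 3′ on the strand of its gene, from RefSeq's TAIR10.1, with the match in capitals. The stretches are chr1:16970154-16970213 (plus strand) for MCM2, chr5:18773843-18773902 for MCM3, chr2:7130731-7130790 for MCM4, chr2:3527501-3527560 for MCM5 and chr5:18010680-18010739 for MCM6, the last 4 on the minus strand.
MCM2: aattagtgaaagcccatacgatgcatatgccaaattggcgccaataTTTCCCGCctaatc
MCM3: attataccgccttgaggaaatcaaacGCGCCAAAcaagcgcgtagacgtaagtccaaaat
MCM4: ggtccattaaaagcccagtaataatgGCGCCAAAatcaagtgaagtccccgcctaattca
MCM5: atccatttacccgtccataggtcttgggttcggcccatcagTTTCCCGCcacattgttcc
MCM6: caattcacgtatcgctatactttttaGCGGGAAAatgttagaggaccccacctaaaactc
MCM2 and MCM5 hold the same letters, TTTCCCGC, in the printed orientation, and MCM6 holds them on the other strand as GCGGGAAA. MCM3 and MCM4 share GCGCCAAA, which is TTTGGCGC on the other strand. In 4 of the 5 genes the match lies within 46 bases of the annotated start, and in MCM3 it lies 170 to 163 bases before it. Over all 27438 promoters of protein-coding genes, 387 (1.41%) held one of these letters in a window of the same length.

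Site II elements, searched as TGGGCC and TGGGCT on both strands, occurred in 6 of the 10 promoters (MCM2 to MCM6 and PCNA2), against 5264 (19.19%) of all promoters. No E2F match overlapped a site II match. The telo box AAACCCTAA was present in PCNA1 alone among the 10 (2.613% of all promoters), and the MSA core AACGG in MCM7 alone (20.57% of all promoters). None of the 4 motifs was found in these windows of TSO2 and CDKB1;1. A match is a description of the letters and not of a bound site.

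**Figure D1:**
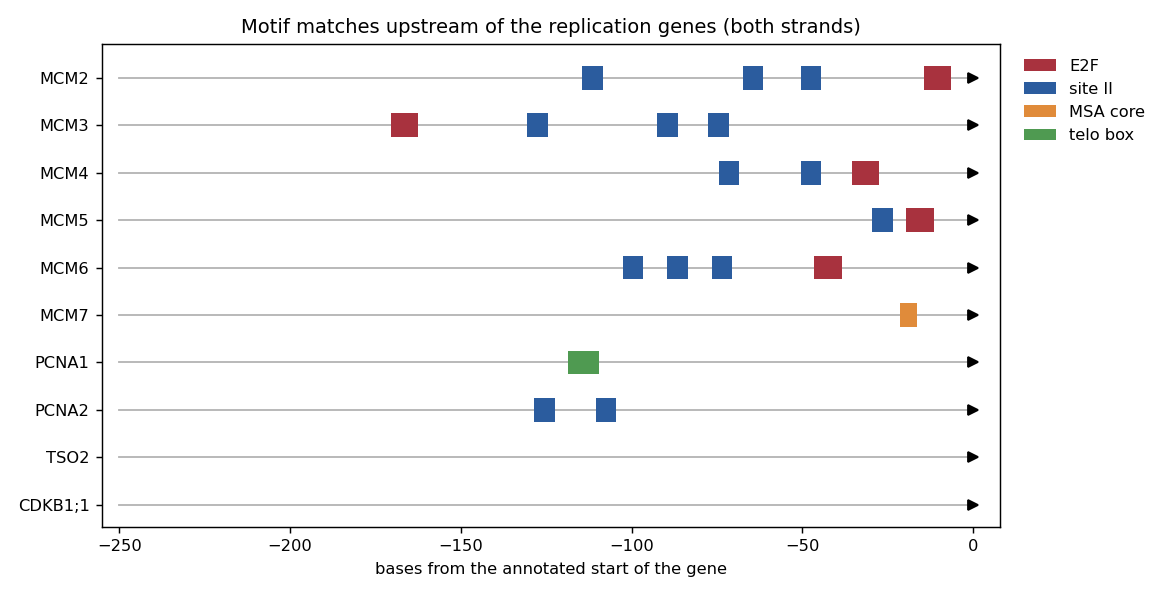
Positions of motif matches in the 250 bases before the annotated start of each gene (horizontal axis, bases from the start; arrowheads mark the start). MCM2 to MCM6 each show an E2F match and at least 1 site II match, while TSO2 and CDKB1;1 show none of the 4 motifs.

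Library totals ran from 9573567 to 16803904 gene counts, so 1 count equalled 0.0595 to 0.104 CPM, and the lowest count of any of the 10 genes was 103 (CDKB1;1 in ref4-1 replicate 3). That library stood apart from the other ref4-1 libraries, its chi-square against them being 15.3 and 11.9 for each degree of freedom, where the other replicate pairs had 2.74 to 6.44. CDK8 was at 4.50 ± 0.170 CPM in cdk8-1, 5.40 ± 1.10 in ref4-3 cdk8-1 and 19.4 ± 1.28 in WT (SD, n = 3 each). As a check of the labelled tissue, all 5 leaf mesophyll markers passed the filter and 0 of 4 root markers did, with PLT1, PLT2 and RHD6 at 0 in every library. Copies of a gene pair can share reads where their sequences are alike. No window of 50 coding bases was identical between PCNA1 and PCNA2 (85.6% identical coding bases), CDKB1;1 and CDKB1;2 (85.9%) or TSO2 and RNR2A (67.9%). The same held for every MCM pair (58.9 to 64.5%). Only coding bases were compared, and reads that align with mismatches were not examined.

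In ref4-3 cdk8-1 rosettes the whole MCM2 to MCM7 set and both PCNA genes fell relative to WT, TSO2 did not pass the test, and CDKB1;1 rose. Of the 10 genes 8 were called lower and 1 higher, where 21.6% of all genes tested were called lower and 21% higher. The 10 genes were chosen with earlier results of these data known, so such counts, here and below, are not independent support. Calls are from edgeR's quasi-likelihood test with Benjamini-Hochberg adjustment over all 18935 genes, at adjusted p under 0.05. The median log2 change of the 10 genes was -0.31, beside 0.02 for all genes tested. Levels are CPM after scaling by trimmed means of M-values (normalised CPM), changes are log2 fold changes ± SE, and replicates are given in the order 1, 2 and 3. How often the libraries of 2 groups do not overlap among all genes was not counted. A lack of overlap, here and below, therefore only describes the values and adds nothing to a test. In pooled rosettes fewer replicating cells and less RNA per cell cannot be told apart.

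MCM6, a helicase subunit, fell most among the 6. It had 16.7, 16.2 and 17.3 CPM in ref4-3 cdk8-1, against 23.6, 22.6 and 23.5 CPM in WT. Every double mutant library was below every WT library, and the change was -0.47 ± 0.08 (adjusted p = 0.000165). MCM5 had 23.9, 24.7 and 18.8 CPM in ref4-3 cdk8-1, against 31.8, 26.0 and 32.0 CPM in WT. Its replicates were more spread in both groups, with the third double mutant library lowest and the second WT library closest to the double mutant, and it changed by -0.41 ± 0.10 (adjusted p = 0.00284). MCM3 had 27.0, 30.8 and 29.8 CPM in ref4-3 cdk8-1, against 36.9, 38.1 and 38.9 CPM in WT. The groups did not overlap, and the change was -0.38 ± 0.07 (adjusted p = 0.000307).

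MCM7 had 22.9, 26.9 and 28.5 CPM in ref4-3 cdk8-1, against 30.002, 34.7 and 32.2 CPM in WT, without overlap (-0.31 ± 0.09, adjusted p = 0.0121). MCM2 had 31.3, 30.9 and 31.6 CPM in ref4-3 cdk8-1, against 37.9, 37.4 and 38.4 CPM in WT, the least spread of the 6 (-0.28 ± 0.08, adjusted p = 0.0105). MCM4 had 22.4, 20.11 and 19.3 CPM in ref4-3 cdk8-1, against 24.8, 22.4 and 27.6 CPM in WT (-0.28 ± 0.08, adjusted p = 0.00977). MCM4 is the one MCM gene whose groups touched, the highest double mutant library lying just above the lowest WT library. Summed over the 6 genes, the level was 144 to 150 CPM in ref4-3 cdk8-1 and 181 to 193 CPM in WT. MCM4 lost its call without WT replicate 3 (-0.20, adjusted p = 0.0724), and MCM7 without ref4-3 cdk8-1 replicate 1 (-0.22, adjusted p = 0.0757) or WT replicate 2 (-0.25, adjusted p = 0.0648). Scaled by library totals alone, which moved the median of all genes to 0.14, 4 calls were lost with their direction kept. MCM2 changed by -0.16 (adjusted p = 0.125), MCM4 by -0.16 (0.134), MCM7 by -0.19 (0.119) and PCNA1 by -0.20 (0.0520).

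Both sliding clamp genes fell. PCNA2 had 19.7, 21.8 and 21.5 CPM in ref4-3 cdk8-1, against 28.3, 31.3 and 33.8 CPM in WT, which is -0.57 ± 0.08 (adjusted p = 2.26e-05), the greatest change among the 10 genes in this comparison. PCNA1 had 17.9, 19.5 and 21.5 CPM in ref4-3 cdk8-1, against 23.0, 23.9 and 26.5 CPM in WT (-0.32 ± 0.08, adjusted p = 0.00281). Neither gene's groups overlapped. The 2 clamp genes together had 40.6 ± 2.74 CPM in ref4-3 cdk8-1 and 55.6 ± 4.54 CPM in WT (SD, n = 3 each).

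TSO2 and CDKB1;1 did not follow the helicase and clamp genes. TSO2 had 86.1, 79.9 and 82.9 CPM in ref4-3 cdk8-1, against 77.9, 77.3 and 81.0 CPM in WT, with overlapping groups (0.08 ± 0.08, adjusted p = 0.466). CDKB1;1 had 11.9, 11.7 and 12.8 CPM in ref4-3 cdk8-1, against 9.63, 9.89 and 9.08 CPM in WT, without overlap (0.35 ± 0.11, adjusted p = 0.0145). CDKB1;1 lost its call without ref4-3 cdk8-1 replicate 3 (adjusted p = 0.0537) or WT replicate 3 (adjusted p = 0.0592). Scaled by library totals alone, TSO2 was called higher as well (0.20, adjusted p = 0.0371).

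**Figure D2:**
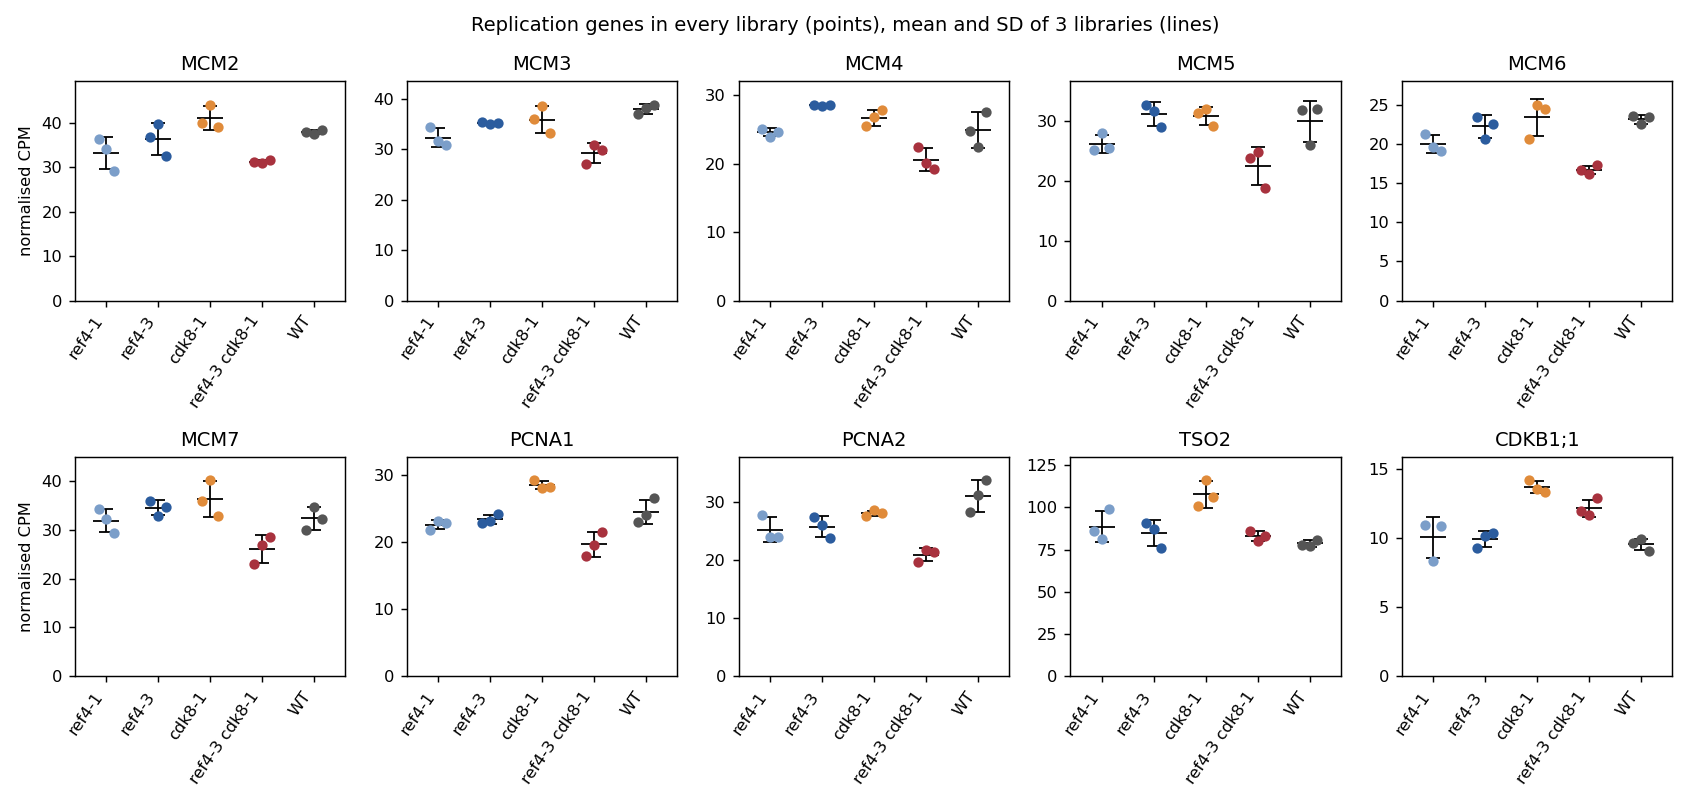
Normalised CPM (vertical axis, from 0) of each gene in every library, with the mean and SD of the 3 libraries of each genotype. For MCM2 to MCM7, PCNA1 and PCNA2 the ref4-3 cdk8-1 mean is the lowest of the 5 genotypes, while TSO2 and CDKB1;1 are highest in cdk8-1.

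Of the 10 genes 4 overlap a neighbour in the annotation. MCM7 shares 437 bases with AT4G02050 (sugar transporter protein 7) on the opposite strand, which went the other way, with 24.2 CPM in ref4-3 cdk8-1 and 16.9 CPM in WT (0.52 ± 0.08, adjusted p = 7.89e-05). PCNA2 shares 279 bases with AT2G29560 (a cytosolic enolase) on the opposite strand, which did not pass the test (-0.21, adjusted p = 0.0677). CDKB1;1 shares 71 bases with AT3G54190 (a WD40 repeat protein) on the opposite strand, which was called higher in ref4-3 cdk8-1 (0.15, adjusted p = 0.0473) and in cdk8-1 (0.20, adjusted p = 0.0244) against WT. TSO2 shares 3 bases with AT3G27050 on its own strand. MCM7 also contains a histidine tRNA gene of 72 bases with 0 counts. The libraries were stranded but the strand setting of the counting is not given in the sources used here, and the part of these neighbours in the values was not tested.

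In cdk8-1 rosettes the helicase genes did not pass the test, whereas TSO2 and CDKB1;1 rose. Of the 10 genes 2 were called higher and 0 lower, where 8.06% of all genes tested were called higher and 11.8% lower, and the median change of the 10 was 0.11 beside 0.00 for all genes. TSO2 had 101, 116 and 106 CPM in cdk8-1, against 77.9, 77.3 and 81.0 CPM in WT, a change of 0.45 ± 0.08 (adjusted p = 0.000424). CDKB1;1 had 14.2, 13.6 and 13.3 CPM in cdk8-1, against 9.63, 9.89 and 9.08 CPM in WT, a change of 0.52 ± 0.11 (adjusted p = 0.00208). Neither gene's groups overlapped, and both calls held when any 1 of the 15 libraries was left out. PCNA1 had 29.2, 28.0 and 28.2 CPM in cdk8-1, against 23.0, 23.9 and 26.5 CPM in WT. Its groups did not overlap either, but it missed the threshold (0.22 ± 0.08, adjusted p = 0.0512) and passed it without WT replicate 3 (0.28, adjusted p = 0.0277), ref4-1 replicate 3 (0.0497), or ref4-3 cdk8-1 replicate 1 (0.0435) or 3 (0.0421). None of the 6 MCM genes was called by edgeR, and 0 of the 6 had an unadjusted p under 0.05. Their changes ran from -0.08 for MCM3 to 0.16 for MCM7. PCNA2 was at 27.6, 28.6 and 28.1 CPM in cdk8-1, overlapping WT (-0.15 ± 0.08, adjusted p = 0.238).

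In the 2 MED5B alleles alone the calls were 2 of the 10 genes in ref4-1 and 1 of the 10 in ref4-3. With higher and lower calls counted together, neither was above the share of all genes called. In ref4-1 MCM3 and PCNA2 were lower than in WT (20% of the 10 genes) and 0 were higher, where 10.2% of all genes were called lower and 10.7% higher. MCM3 had 34.4, 31.6 and 30.8 CPM in ref4-1, against 36.9, 38.1 and 38.9 CPM in WT (-0.23 ± 0.07, adjusted p = 0.0256). PCNA2 had 27.8, 24.1 and 24.1 CPM in ref4-1, against 28.3, 31.3 and 33.8 CPM in WT (-0.30 ± 0.08, adjusted p = 0.0146). The groups did not overlap in either gene, though the highest ref4-1 library of PCNA2 was close to the lowest WT library. MCM3 lost its call without ref4-1 replicate 2 (adjusted p = 0.0874) or 3 (0.0658) or WT replicate 2 (0.0649) or 3 (0.0831), and PCNA2 without ref4-1 replicate 2 (0.0721) or WT replicate 3 (0.0804). With the ref4-1 and WT libraries fitted alone neither gene was called. MCM2 and MCM6 also lay below WT in every ref4-1 library but missed the threshold (-0.18 ± 0.08, adjusted p = 0.134, and -0.21 ± 0.08, adjusted p = 0.0806). TSO2 lay above WT in every ref4-1 library, by a narrow margin, and missed it too (0.17 ± 0.08, adjusted p = 0.149).

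In ref4-3 PCNA2 alone was called, lower than in WT, where 19.6% of all genes were called lower and 20.3% higher. PCNA2 had 27.5, 26.1 and 23.9 CPM in ref4-3, against 28.3, 31.3 and 33.8 CPM in WT (-0.27 ± 0.08, adjusted p = 0.0138), and it lost its call without ref4-3 replicate 3 (adjusted p = 0.0744) or WT replicate 3 (0.0830). MCM4 had 28.6, 28.4 and 28.7 CPM in ref4-3, against 24.8, 22.4 and 27.6 CPM in WT. Every ref4-3 library was above every WT library, but the change missed the threshold (0.19 ± 0.08, adjusted p = 0.0569), and it passed without WT replicate 3 (0.27, adjusted p = 0.0147). The median change of the 10 genes was 0.00 in ref4-3 and -0.15 in ref4-1, beside 0.02 for all genes in both. Scaled by library totals alone, which moved the median of all genes to 0.19 in ref4-3 and 0.11 in ref4-1, PCNA2 and MCM3 were no longer called. MCM4, MCM7 and TSO2 were then called higher in ref4-3, and TSO2 in ref4-1. These comparisons, and those of cdk8-1 and the double mutant, share the WT libraries.

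Between the alleles, ref4-3 against ref4-1, edgeR called 0 of the 10 genes, where 4.52% of all genes were called higher and 6.39% lower. DESeq2 and limma voom also called 0, and 2 genes had an unadjusted p under 0.05. MCM4 had 28.6, 28.4 and 28.7 CPM in ref4-3, against 25.2, 24.0 and 24.7 CPM in ref4-1, without overlap (0.21 ± 0.08, adjusted p = 0.0835). MCM5 had 32.8, 31.7 and 29.0 CPM in ref4-3, against 25.2, 27.9 and 25.5 CPM in ref4-1, also without overlap (0.25 ± 0.10, adjusted p = 0.116).

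**Figure D3:**
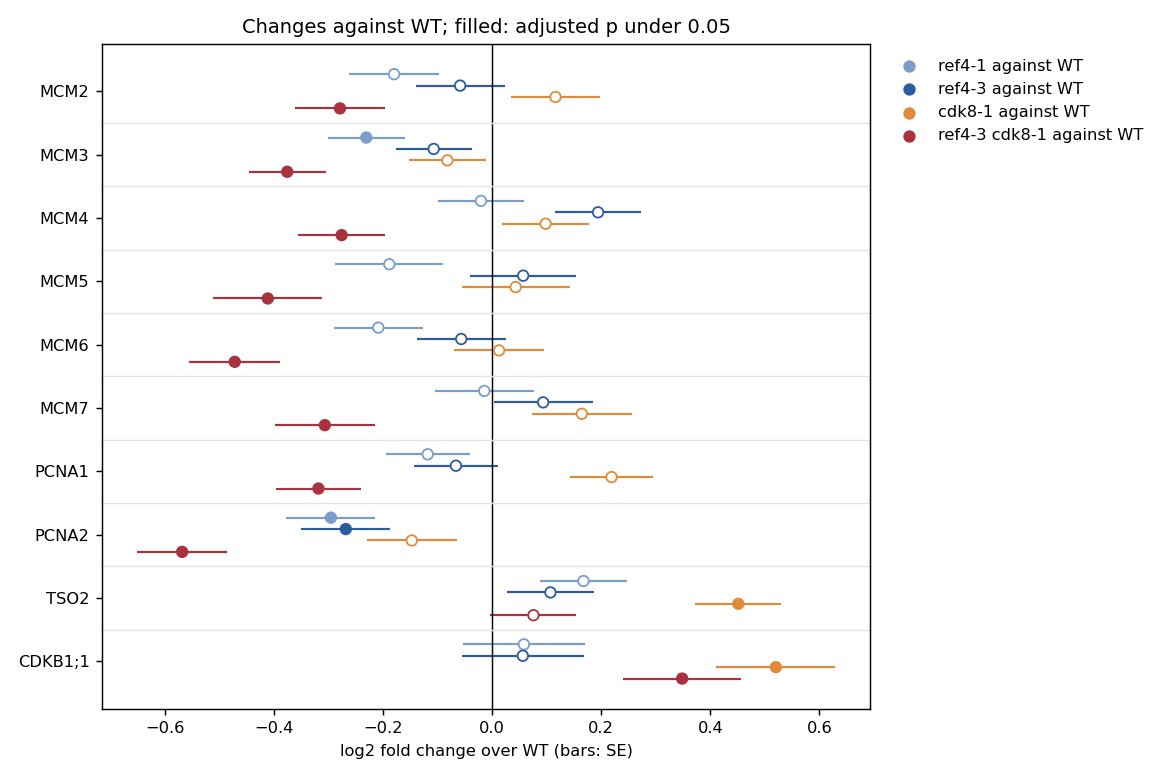
Log2 fold change over WT (horizontal axis) with SE for each gene in the 4 mutant genotypes; filled points have an adjusted p under 0.05. The ref4-3 cdk8-1 points of the MCM and PCNA genes are filled and lie from -0.57 to -0.28, and the single-mutant points of these genes are filled for MCM3 in ref4-1 and PCNA2 in both ref4 alleles only.

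Set against ref4-3, the double mutant gives the change that comes with cdk8-1 in the ref4-3 background. The MED5B transcript was itself called lower in this comparison. In ref4-3 against WT it was called higher, and that call was lost without ref4-3 replicate 1 (0.0580) or 2 (0.0630) or WT replicate 2 (0.138). Of the 10 genes 8 were called lower and 1 higher, where 17% of all genes were called lower and 15.9% higher. The median change of the 10 was -0.28, beside 0.01 for all genes. MCM4 had 22.4, 20.11 and 19.3 CPM in ref4-3 cdk8-1, against 28.6, 28.4 and 28.7 CPM in ref4-3, and the gap between the groups was wider than the range within either (-0.47 ± 0.08, adjusted p = 0.000131). MCM5 had 23.9, 24.7 and 18.8 CPM in ref4-3 cdk8-1, against 32.8, 31.7 and 29.0 CPM in ref4-3 (-0.47 ± 0.10, adjusted p = 0.00117). MCM6 changed by -0.42 ± 0.08 (adjusted p = 0.000702), MCM7 by -0.40 ± 0.09 (adjusted p = 0.00214) and MCM3 by -0.27 ± 0.07 (adjusted p = 0.00614). The calls of these 5 MCM genes held when any 1 library was left out.

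The remaining calls against ref4-3 lay closer to the threshold, and each was lost without at least 1 library. PCNA2 changed by -0.30 ± 0.08 (adjusted p = 0.00919) and lost its call without ref4-3 replicate 1 (0.0517). PCNA1 changed by -0.25 ± 0.08 (adjusted p = 0.0163) and lost it without ref4-3 replicate 3 (0.0642) or ref4-3 cdk8-1 replicate 1 (0.0948). MCM2 changed by -0.22 ± 0.08 (adjusted p = 0.0451), and its call was lost without ref4-1 replicate 2, ref4-3 replicate 1 or 2, WT replicate 3 or any of the 3 ref4-3 cdk8-1 libraries (adjusted p = 0.0505 to 0.209). CDKB1;1 was higher by 0.29 ± 0.11 (adjusted p = 0.0407), and its call was lost without any 1 library of ref4-3, cdk8-1 or ref4-3 cdk8-1, or without WT replicate 1 or 3 (0.0503 to 0.142). Where the library left out was of a genotype not compared, MCM2 stayed at -0.22 and CDKB1;1 at 0.29 although the call was lost. DESeq2 called 6 of the 10 genes, all lower. TSO2 was at 86.1, 79.9 and 82.9 CPM in ref4-3 cdk8-1, inside the range of 90.7, 87.4 and 76.2 CPM in ref4-3 (-0.03 ± 0.08, adjusted p = 0.808).

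Set against cdk8-1, the double mutant was lower in 9 of the 10 genes and higher in 0, where 16.4% of all genes were called lower and 16.4% higher. The median change was -0.41, beside 0.02 for all genes. PCNA1 had 17.9, 19.5 and 21.5 CPM in ref4-3 cdk8-1, against 29.2, 28.0 and 28.2 CPM in cdk8-1 (-0.54 ± 0.08, adjusted p = 3.06e-05), the greatest change of the 10 here. MCM6 changed by -0.48 ± 0.08 (adjusted p = 0.000204) and MCM7 by -0.47 ± 0.09 (adjusted p = 0.000639). TSO2 had 86.1, 79.9 and 82.9 CPM in ref4-3 cdk8-1, against 101, 116 and 106 CPM in cdk8-1 (-0.38 ± 0.08, adjusted p = 0.00113). All 9 calls held when any 1 of the 15 libraries was left out. CDKB1;1 was below cdk8-1 in every double mutant library but missed the threshold (-0.17 ± 0.10, adjusted p = 0.219). Scaled by library totals alone, MCM3 missed it too (-0.19, adjusted p = 0.0627).

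The effect of cdk8-1 depended on the MED5B allele for 6 of the 10 genes. The interaction, which is the effect of cdk8-1 in ref4-3 minus its effect in WT, was called below 0 for MCM4, MCM5, MCM6, MCM7, PCNA1 and TSO2 and above 0 for 0 genes, where 2.05% of all genes were called below and 3.07% above. Its median was -0.45 over the 10 genes and 0.01 over all genes. MCM4 went by -0.47 with cdk8-1 in ref4-3 and by 0.10 in WT, a difference of -0.57 ± 0.11 (adjusted p = 0.00640). MCM7 went by -0.40 in ref4-3 and by 0.16 in WT, a difference of -0.56 ± 0.13 (adjusted p = 0.0159). In both genes only the effect in ref4-3 passed its own test. PCNA1 went by -0.25 in ref4-3 and by 0.22 in WT, a difference of -0.47 ± 0.11 (adjusted p = 0.0163). TSO2 went by -0.03 in ref4-3 and by 0.45 in WT, a difference of -0.48 ± 0.11 (adjusted p = 0.0164). For TSO2 the effect in WT is the one that passed its own test. MCM5 and MCM6 had differences of -0.51 ± 0.14 (adjusted p = 0.0411) and -0.43 ± 0.12 (adjusted p = 0.0397).

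The interaction calls of MCM4, PCNA1 and TSO2 held when any 1 library was left out, and that of MCM7 was lost without cdk8-1 replicate 2 (adjusted p = 0.0536). That of MCM5 was lost without ref4-3 replicate 1 or 2, cdk8-1 replicate 1 or 2, ref4-3 cdk8-1 replicate 1 or 3, or WT replicate 2 (0.0556 to 0.0964). That of MCM6 was lost without ref4-3 replicate 1 or 3, cdk8-1 replicate 2 or 3, WT replicate 2 or 3, or any ref4-3 cdk8-1 library (0.0590 to 0.106). MCM2 (-0.34 ± 0.12, adjusted p = 0.103), MCM3 (-0.19 ± 0.10, adjusted p = 0.319), PCNA2 (-0.15 ± 0.12, adjusted p = 0.516) and CDKB1;1 (-0.23 ± 0.15, adjusted p = 0.444) did not pass the test of the difference. MCM2 passed it without ref4-1 replicate 3 (adjusted p = 0.0438), the library that stood apart, and with only the groups compared in the fit (adjusted p = 0.0499).

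**Figure D4:**
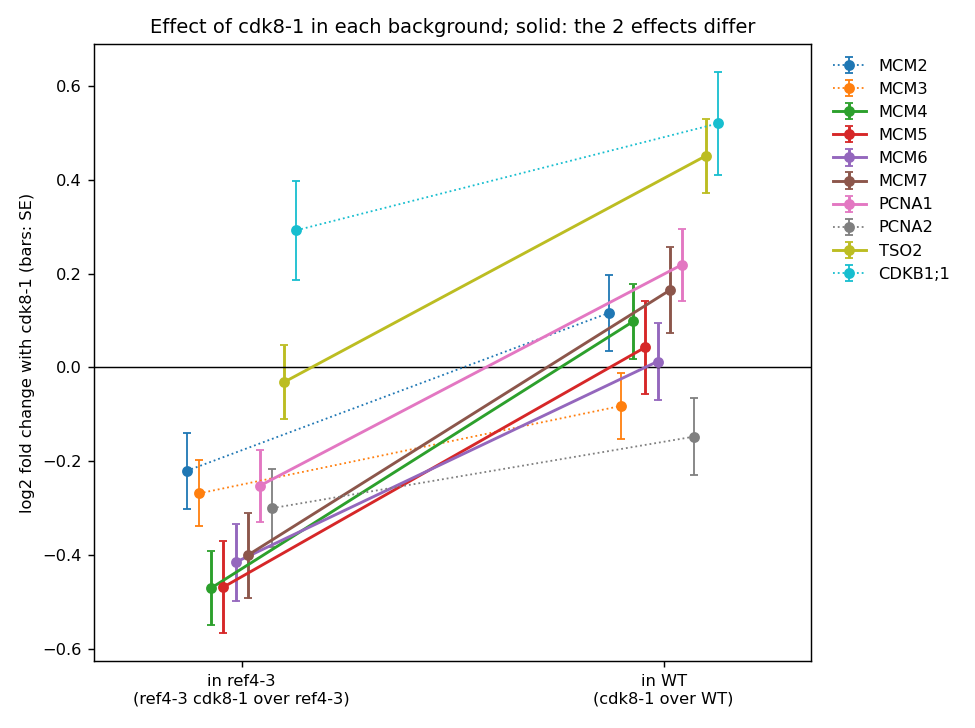
Log2 fold change with cdk8-1 (vertical axis, bars are SE) in the ref4-3 background on the left and in WT on the right; solid lines mark genes whose 2 effects differ at adjusted p under 0.05. All 10 lines climb to the right, and MCM4 runs from -0.47 to 0.10.

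Ordered by their mean level, the double mutant was the lowest of the 5 genotypes for the 6 MCM genes and both PCNA genes, and WT was the lowest for TSO2 and CDKB1;1. The genotype next above the double mutant was ref4-1 in all 8 cases. Against ref4-1, the double mutant was called lower for 5 of the 10 genes and higher for 1, where 19.3% of all genes were called lower and 17.2% higher. MCM4 (-0.26 ± 0.08, adjusted p = 0.0170), MCM6 (-0.26 ± 0.08, 0.0189), MCM7 (-0.29 ± 0.09, 0.0176), PCNA1 (-0.20 ± 0.08, 0.0498) and PCNA2 (-0.27 ± 0.08, 0.0156) were lower, and CDKB1;1 was higher (0.29 ± 0.11, 0.0388). MCM2, MCM3 and MCM5 did not pass the test between these neighbours (adjusted p = 0.370, 0.121 and 0.0917). All 6 calls were lost without 1 or more libraries. MCM4 was lost without ref4-1 replicate 1 or ref4-3 cdk8-1 replicate 2 or 3 (adjusted p = 0.0538 to 0.0753). MCM6 was lost without ref4-1 replicate 1 or ref4-3 cdk8-1 replicate 2 (0.0865 and 0.0679). MCM7 and PCNA2 were lost without ref4-1 replicate 1 or ref4-3 cdk8-1 replicate 1 (0.0731 to 0.107). CDKB1;1 was lost without ref4-1 replicate 2 or any ref4-3 cdk8-1 library (0.0549 to 0.277). PCNA1 was called in 2 of the 15 fits only, those without WT replicate 3 or ref4-3 cdk8-1 replicate 3, and had an adjusted p of 0.0505 to 0.221 in the other 13.

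At the upper end, cdk8-1 had the highest mean for MCM2, MCM6, MCM7, PCNA1, TSO2 and CDKB1;1, ref4-3 for MCM4 and MCM5, and WT for MCM3 and PCNA2. TSO2 in cdk8-1 stood above the next genotype, ref4-1, with 0.28 ± 0.08 (adjusted p = 0.00768), a call that missed the threshold without ref4-1 replicate 2 (adjusted p = 0.0511). For the other 9 genes the difference between the top and the second genotype did not pass the test. Among the remaining neighbours in the order, none passed the test in any of the 10 genes.

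Levels between genes were compared per kilobase (kb) of the union of exons. TSO2 was the highest of the 10, with 49.0 CPM per kb in ref4-3 cdk8-1, 63.6 in cdk8-1 and 46.5 in WT. PCNA1 had 17.4 CPM per kb in ref4-3 cdk8-1 and 21.6 in WT, and PCNA2 had 17.7 in ref4-3 cdk8-1 and 26.3 in WT. The MCM genes lay lower, from 5.74 (MCM6) to 9.86 (MCM7) CPM per kb in ref4-3 cdk8-1 and from 7.96 (MCM6) to 12.5 (MCM3) in WT. CDKB1;1 had 8.81 CPM per kb in ref4-3 cdk8-1 and 6.91 in WT. Although the 6 helicase subunits work in one ring, their transcript levels per kb differed by a factor of 1.79 ± 0.0611 between the highest and lowest subunit in ref4-3 cdk8-1 and of 1.596 ± 0.0982 in WT (SD, n = 3 each).

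The balance between the clamp genes was read from their levels per kb. The ratio of PCNA2 to PCNA1 per kb was 0.999 to 1.22 in ref4-1, 0.943 to 1.15 in ref4-3, 0.906 to 0.974 in cdk8-1, 0.955 to 1.06 in ref4-3 cdk8-1 and 1.18 to 1.25 in WT. The WT ratios were above all ratios of ref4-3, cdk8-1 and ref4-3 cdk8-1, and overlapped those of ref4-1. No test was made of this ratio.

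Beside TSO2, the ribonucleotide reductase genes RNR2A and RNR2B (small subunit, RNR2B annotated as a transcribed pseudogene) and RNR1 (large subunit) were measured. The sequences of TSO2 and RNR2B were not compared, so reads shared between them were not examined. In cdk8-1 TSO2 was called higher than in WT, RNR2A had 20.2 CPM per kb in cdk8-1 and 19.9 in WT (0.03, adjusted p = 0.837), and RNR1 changed by -0.01 (adjusted p = 0.930). RNR2B had 7.84 CPM per kb in cdk8-1 and 5.29 in WT (0.57 ± 0.17, adjusted p = 0.0256), and its call was lost without cdk8-1 replicate 2 (0.0774) or 3 (0.0805) or WT replicate 1 (0.0752) or 3 (0.0720). TSO2 made up 67.9 to 71.0% of the summed level per kb of the 3 small subunit genes in cdk8-1, 66.1 to 69.5% in ref4-1, 68.5 to 70.1% in ref4-3, 65.3 to 68.4% in ref4-3 cdk8-1 and 64.7 to 65.2% in WT. In ref4-3 cdk8-1, where TSO2 was not called, RNR1 fell, with 83.7 ± 4.27 CPM in ref4-3 cdk8-1 and 105 ± 3.22 CPM in WT (-0.32 ± 0.07, adjusted p = 0.00164).

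Other genes of replication and the cell cycle, on lists chosen with earlier results of these data known, were counted in the same fit. The counts below for ref4-3 cdk8-1 against WT stand beside 21.6% of all genes called lower and 21% called higher. Of 17 licensing and helicase genes 5 (29.4%) were called lower and 0 higher (median change -0.28). They include CDC6A, a loader of the MCM ring (4.74 ± 0.448 CPM in ref4-3 cdk8-1 and 7.80 ± 1.08 in WT, -0.72 ± 0.20, adjusted p = 0.00694), and ORC2, of the origin recognition complex (-0.57 ± 0.16, adjusted p = 0.00783). Of 23 polymerase and fork genes 7 (30.4%) were lower and 1 higher (median -0.10). The lower shares of both lists lie near that of all genes. The single-strand binding proteins RPA1D (20.7 ± 2.51 CPM in ref4-3 cdk8-1 and 35.1 ± 2.28 in WT, -0.77 ± 0.09, adjusted p = 1.94e-06) and RPA1B (-0.61 ± 0.12, adjusted p = 0.000655) had the smallest adjusted p. Of 10 genes of replication-coupled chromatin 4 were lower and 0 higher (median -0.18), among them the maintenance DNA methyltransferase MET1 (53.2 ± 0.841 CPM in ref4-3 cdk8-1 and 70.4 ± 2.29 in WT, -0.41 ± 0.08, adjusted p = 0.000566) and its partner VIM1 (-0.37 ± 0.08, adjusted p = 0.00111). Of 8 nucleotide supply genes 2 (25.0%) were lower, RNR1 and THY-2, and 0 higher (median -0.19), also near the share of all genes. THY-2, a thymidylate synthase with dihydrofolate reductase activity, changed by -0.27 ± 0.09 (adjusted p = 0.0196) and lost its call without ref4-3 cdk8-1 replicate 1 (0.0549) or 3 (0.0632) or WT replicate 1 (0.0973) or 3 (0.0577).

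Outside replication itself, 7 of 21 G2 and M phase genes (33.3%) were lower and 0 higher in ref4-3 cdk8-1 against WT (median -0.26), beside the same 21.6% and 21% of all genes. The cytokinesis syntaxin KNOLLE had 24.2 ± 1.11 CPM in ref4-3 cdk8-1 and 36.7 ± 2.54 CPM in WT (-0.60 ± 0.07, adjusted p = 2.25e-06), and the cyclin CYCA1;1 changed by -0.44 ± 0.09 (adjusted p = 0.000969). Of 9 E2F, DP and RBR regulators 2 (22.2%) were higher, a share like that of all genes, and 0 lower (median 0.09). They are the atypical repressor DEL2 (0.76 ± 0.15, adjusted p = 0.000517) and the activator E2FB (0.50 ± 0.15, adjusted p = 0.0114), whose call was lost without WT replicate 2 (0.0565). Of 8 G1 and S phase cyclins 1 was higher and 2 lower. CYCA3;2 changed by -0.27 ± 0.08 (adjusted p = 0.0160), lost without WT replicate 2 (0.0971), and CYCA3;1 by -0.38 ± 0.13 (adjusted p = 0.0231), lost without ref4-3 cdk8-1 replicate 2 (0.0694) or 3 (0.0788) or WT replicate 1 (0.0762). Of 13 CDK inhibitors 2 were higher and 2 lower, with KRP2 at 13.2 ± 0.915 CPM in ref4-3 cdk8-1 and 8.74 ± 0.590 CPM in WT (0.59 ± 0.11, adjusted p = 0.000425). AT5G40460, also on the inhibitor list, changed by -1.15 ± 0.34 (adjusted p = 0.0114). Of 8 DNA damage response genes 3 were higher and 0 lower. GMI1, a repair gene related to structural maintenance of chromosomes proteins, had 18.4 ± 0.747 CPM in ref4-3 cdk8-1 and 7.79 ± 1.29 CPM in WT (1.24 ± 0.15, adjusted p = 2.63e-06), and the poly(ADP-ribose) polymerase PARP2 changed by 0.51 ± 0.14 (adjusted p = 0.00661). Of the 3 endocycle activators CCS52A1 was lower (-0.34 ± 0.08, adjusted p = 0.00337).

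Against cdk8-1, where 16.4% of all genes were called lower and 16.4% higher, the lists held these lower calls in ref4-3 cdk8-1: 8 of 17 licensing genes, 9 of 23 polymerase and fork genes, 3 of 8 nucleotide supply genes, 8 of 10 chromatin genes and 16 of 21 G2 and M phase genes, with 0 higher in each. Their medians were -0.30, -0.26, -0.21, -0.43 and -0.49. Against ref4-3, where 17% of all genes were called lower and 15.9% higher, the licensing list held 3 lower calls of 17 and 0 higher (median 0.02), a share of 17.6% that is like that of all genes. The fork list held 7 of 23 lower and 0 higher (median -0.19), and the nucleotide supply list 3 of 8 lower and 2 higher (median -0.05). The chromatin list held 1 of 10 lower and 0 higher (median -0.04), and the G2 and M phase list 2 of 21 lower and 1 higher (median -0.07). CDT1A, which helps load the MCM ring, had 13.99 ± 1.91 CPM in ref4-3 cdk8-1 and 19.0 ± 0.884 CPM in ref4-3 (-0.44 ± 0.10, adjusted p = 0.00287). RPA1D (-0.44 ± 0.09, adjusted p = 0.00115), RNR1 (-0.38 ± 0.07, adjusted p = 0.000462) and RBR1 (-0.28 ± 0.06, adjusted p = 0.000895) were lower as well. E2FA changed by -0.54 ± 0.15 (adjusted p = 0.00876), lost without ref4-3 replicate 1 (0.0519). RNR1 (-0.37, adjusted p = 0.0443) and RBR1 (-0.31, adjusted p = 0.0349) were also called below 0 in the interaction, where 2.05% of all genes were. Each is the only call of its list there, 1 of 8 nucleotide supply genes and 1 of 9 E2F, DP and RBR regulators. The fork list held 1 call of 23 and the G2 and M phase list 1 of 21, and the licensing and chromatin lists held 0.

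In cdk8-1 against WT, where 8.06% of all genes were called higher and 11.8% lower, every call on these lists was higher. The licensing list held 0 calls by edgeR, with 1 gene at an unadjusted p under 0.05. DUT1, which removes dUTP from the nucleotide pool, had 41.4 ± 0.627 CPM in cdk8-1 and 22.9 ± 1.47 CPM in WT (0.85 ± 0.09, adjusted p = 3.95e-06). The nucleotide supply list held 2 of 8 higher, the chromatin list 2 of 10 and the fork list 1 of 23 (4.35%, below the share of all genes). Of 21 G2 and M phase genes 5 (23.8%) were higher and 0 lower, led by CYCB1;2 (0.41 ± 0.09, adjusted p = 0.00307) and CDKB1;2 (0.71 ± 0.16, adjusted p = 0.00421), the closest relative of CDKB1;1. The replication-dependent histone genes AT1G09200 (0.38 ± 0.10, adjusted p = 0.00755) and AT5G65360 (0.28 ± 0.09, adjusted p = 0.0289) rose, though near-identical histone H3.1 copies make single values uncertain. AT5G65360 lost its call without cdk8-1 replicate 2 (0.115) or WT replicate 1 (0.0965) or 3 (0.0675). DEL3 (0.81 ± 0.18, adjusted p = 0.00381) and GMI1 (0.98 ± 0.16, adjusted p = 0.000166) rose too.

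In ref4-3 against WT, where 20.3% of all genes were called higher and 19.6% lower, the fork list held 5 of 23 higher (21.7%) and 2 lower, and the licensing list 3 of 17 lower (17.6%) and 0 higher, shares close to those of all genes. The chromatin list held 4 of 10 lower and the G2 and M phase list 5 of 21 lower, with 0 higher in both. The polymerase subunit POLD1 (0.39 ± 0.10, adjusted p = 0.00546) and the clamp loader subunit RFC5 (0.35 ± 0.09, adjusted p = 0.00357), which loads PCNA, were higher. CDC6A (-0.78 ± 0.20, adjusted p = 0.00464) and KNOLLE (-0.47 ± 0.07, adjusted p = 4.64e-05) were lower. RBR1 had 62.3 ± 2.17 CPM in ref4-3 and 51.8 ± 1.49 CPM in WT (0.27 ± 0.06, adjusted p = 0.00136). In ref4-1 against WT 2 of 17 licensing genes (11.8%) were lower, a share close to the 10.2% of all genes called lower. They are ORC1B (-0.54 ± 0.13, adjusted p = 0.00639) and CDC6A (-0.73 ± 0.20, adjusted p = 0.0134), the second without its call when WT replicate 2 was left out (0.0651).

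**Figure D5:**
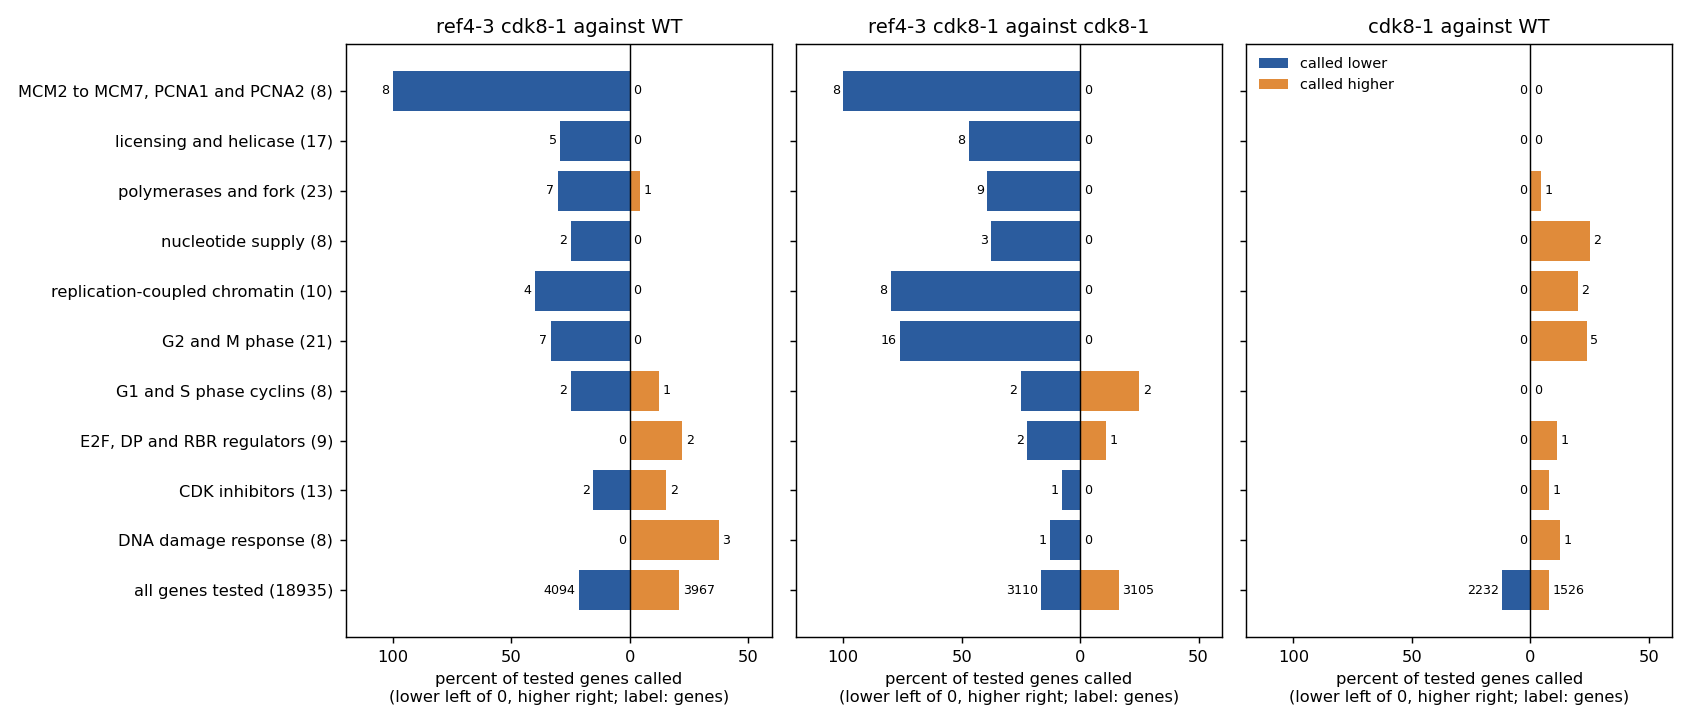
Percent of the tested genes of each list called lower (left of 0) and higher (right of 0), with the number of genes beside each bar, in 3 comparisons. All 8 MCM and PCNA genes are called lower in ref4-3 cdk8-1 against WT and against cdk8-1, and 0 of them are called in cdk8-1 against WT; the bottom bars give all 18935 genes tested.

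Promoters with an E2F motif held calls in both directions in ref4-3 cdk8-1. Of 267 tested genes with the motif, 58 (21.7%) were called lower and 36 (13.5%) higher against WT, beside 21.6% lower and 21% higher of all genes. The lower share is that of all genes and the higher share is below it, and the median change was 0.01 beside 0.02 for all genes. Without the genes on the lists above, 46 of 247 were lower and 36 higher (median 0.03). Of the 10 genes studied, those with the motif (MCM2 to MCM6) and 3 without it (MCM7, PCNA1 and PCNA2) were called lower against WT. Against cdk8-1, 64 of the 267 (23.97%) were lower and 32 (11.985%) higher, where 16.4% of all genes were called lower and 16.4% higher. Without the listed genes, 50 of 247 were lower and 32 higher (median -0.02). Against ref4-3, 42 of the 267 (15.73%) were lower and 26 (9.74%) higher, beside 17% and 15.9% of all genes. The lower share was thus above that of all genes against cdk8-1 but not against ref4-3. The part of the motif in these changes was not tested.

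Markers of cell types that a rosette could hold were read beside these results. Of 9 markers of the shoot meristem and young leaf 6 were tested. They summed to 64.6 to 78.0 CPM in ref4-3 cdk8-1, 64.4 to 85.2 in cdk8-1, 81.6 to 94.8 in ref4-3 and 57.2 to 68.0 in WT. In ref4-3 cdk8-1 against WT 3 were called higher and 0 lower, where 21% of all genes were called higher and 21.6% lower. Among the 3 was GRF5, a factor of leaf cell proliferation (0.51 ± 0.12, adjusted p = 0.00194). Against cdk8-1 edgeR called 0 of the 6, with 1 at an unadjusted p under 0.05, where 16.4% of all genes were called lower and 16.4% higher. Against ref4-3 edgeR called 3 lower, beside 17% of all genes. ANT, an organ growth factor, had 28.0 ± 4.20 CPM in ref4-3 cdk8-1 and 38.7 ± 2.61 CPM in ref4-3 (-0.46 ± 0.10, adjusted p = 0.00193). The part of these markers in the results was not tested.

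Stomatal lineage markers, all 7 tested, summed to 52.6 to 56.1 CPM in ref4-3 cdk8-1 and 56.4 to 63.0 in WT. Of them 1 was called higher and 1 lower, where 21% of all genes were called higher and 21.6% lower. Mesophyll markers summed to 29387 to 29542 CPM in ref4-3 cdk8-1, 41399 to 44454 in cdk8-1, 23429 to 30220 in ref4-1, 21528 to 23454 in ref4-3 and 35653 to 35896 in WT. Against WT 4 of 5 were lower in ref4-3 cdk8-1 (21.6% of all genes), 5 in ref4-1 (10.2%) and 5 in ref4-3 (19.6%). In cdk8-1 3 of the 5 were higher (8.06% of all genes). Xylem markers summed to 89.2 to 120 CPM in ref4-3 cdk8-1, 114 to 125 in cdk8-1, 46.4 to 55.6 in ref4-1, 42.7 to 63.4 in ref4-3 and 72.3 to 81.0 in WT. Of the 4, 3 were called lower in ref4-1 (10.2% of all genes) and 2 in ref4-3 (19.6%) against WT. In ref4-3 cdk8-1 against ref4-3 4 were higher (15.9% of all genes). In ref4-3 cdk8-1 against WT 1 of the 4, XCP1, was higher (0.94 ± 0.15, adjusted p = 7.84e-05) and 0 were lower, where 21% of all genes were called higher. Of the 6 flower markers 1 passed the filter on low counts, AG, with a mean of 1.02 CPM or less in every genotype. The part of these markers in the results was not tested either.

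Over the 15 libraries, the genes outside the lists whose level was most like the mean of the 10 genes were ABAP1 (AT5G13060, Pearson r = 0.92), MPPBETA (AT3G02090, 0.92), AT1G77030 (0.91), AT3G53680 (0.91), AT4G16630 (0.89) and RPL23AB (AT3G55280, 0.88), out of 14918 candidates with a mean of at least 5 CPM. ABAP1 averaged 6.48 CPM in ref4-3 cdk8-1, 10.8 in cdk8-1 and 10.7 in WT. Most like TSO2 alone were PTB1 (0.83), HTA10 (0.81) and VIM3 (0.80), and most like CDKB1;1 alone were SQD1 (0.93), AT3G62460 (0.92) and AFO (0.91). These correlations share the libraries, their depth and the 5 genotypes, and are descriptions with no test.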

How the data were processed

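Polyadenylated RNA of 15 whole-rosette samples was sequenced from stranded libraries, as the labels' protocols say. The submitters' processing notes name Trimmomatic, TopHat2 2.1.0, HTSeq 0.6.1, edgeR and the build TAIR10. The authors deposited whole-number read counts per gene, not normalised. Rows that name no gene stayed out of library sizes; ambiguous reads equalled 1.63 to 6.67% of gene counts.

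Genes above 1 CPM in 3 or more libraries were kept and scaled by TMM (factors 0.937 to 1.08). All 15 libraries entered 1 quasi-likelihood fit of genotype in edgeR 4.0.16 (R 4.3.3), tested on simulated data first. There edgeR called 10 of 50 genes changed by 0.3 on the log2 scale and 28 of 50 changed by 0.5. Those genes were drawn from all genes tested and not from the 10. A gene that was not called is therefore not shown to be unchanged. Alternatives were DESeq2 1.42.0 and limma 3.58.1, other scaling, filters and fits, a replicate block and leaving out each library. Per-kb levels changed little with the longest transcript as length. Every pair of replicates differed by more than counting noise. The 10 genes and the lists were chosen with earlier results of these data known. Besides the 10 genes, named genes are CDK8, MED5B and the genes most alike over libraries. From each list come up to 2 called genes with the smallest adjusted p in each comparison with WT or in ref4-3 cdk8-1 against ref4-3. RNR2A, overlapping neighbours and values of these genes in other comparisons were added after their values were seen.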

Additional observations from a re-analysis of the deposited data

Results flagged for a closer look

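For 6 genes the effect of cdk8-1 in ref4-3 differed from its effect in WT by a test of the difference itself, edgeR's quasi-likelihood test of the interaction with Benjamini-Hochberg adjustment over all genes. The log2 difference, effect in ref4-3 minus effect in WT, was -0.57 for MCM4, -0.51 for MCM5, -0.43 for MCM6, -0.56 for MCM7, -0.47 for PCNA1 and -0.48 for TSO2. MCM5 had 22.5 ± 3.19 CPM in ref4-3 cdk8-1 and 31.1 ± 1.96 in ref4-3, against 30.9 ± 1.44 in cdk8-1 and 29.96 ± 3.40 in WT (SD, n = 3 each). TSO2 had 83.0 ± 3.09 CPM in ref4-3 cdk8-1 and 84.8 ± 7.58 in ref4-3, against 108 ± 7.74 in cdk8-1 and 78.7 ± 1.97 in WT.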

How the results depend on the processing

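With library totals in place of TMM, the genes called of the 10 were 1 (2 with TMM) in ref4-1 against WT, 3 (1) in ref4-3 against WT and 2 (0) in ref4-3 against ref4-1. That scaling also moved the share of higher among all called genes, to 75.5% from 51.4% in ref4-1, to 77.7% from 50.8% in ref4-3 and to 69.1% from 49.2% in ref4-3 cdk8-1 against WT, to 72.2% from 49.96% against cdk8-1, to 71.7% from 41.4% between the alleles and to 43.1% from 59.9% in the interaction. With only the groups compared in the fit, 0 of the 10 were called in ref4-1, and with CPM above 5 in 3 libraries 2 in ref4-3. Leaving out each library gave 0 to 2 in ref4-1, 0 to 1 in ref4-3, 7 to 9 in ref4-3 cdk8-1 and 2 to 3 in cdk8-1 against WT, 6 to 9 against ref4-3, 9 to 9 against cdk8-1, 0 to 0 between the alleles and 3 to 7 in the interaction, where 3 came without cdk8-1 replicate 2. The 1 call in ref4-3 against WT without WT replicate 3 was MCM4, higher, while PCNA2, called lower in the main fit, lost its call. DESeq2 called 8, 6 and 5 of the 10 in ref4-3 cdk8-1 against WT, against ref4-3 and in the interaction, where edgeR called 9, 9 and 6.

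Over all genes, fitting only the groups compared gave 2621 calls in ref4-1 against WT (3962 with all groups) and 637 between the alleles (2064). Without ref4-3 replicate 3 the alleles differed in 930 genes, and the interaction (971 genes) held 540 without cdk8-1 replicate 2, 626 without ref4-3 cdk8-1 replicate 1 and 620 without WT replicate 2. Of the alternatives to the changes of the 10 genes, 1753 stayed on the same side of the threshold, 70 lost the call, 17 gained it and 0 reversed a call. Values that missed the threshold in both fits could change sign: MCM3 in ref4-3 against WT (-0.11) reached 0.06, and 284 values of all named genes did so. The cause of these differences was not tested.

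The replicate numbers do not pair the samples: deviations of same-numbered libraries correlated at -0.189 to 0.181, and not every library was most like its own number. With the replicate block 2, 1, 3 and 9 of the 10 genes were called against WT in ref4-1, ref4-3, cdk8-1 and ref4-3 cdk8-1, 9 against ref4-3, 9 against cdk8-1, 0 between the alleles and 6 in the interaction. The third gene in cdk8-1 was PCNA1 (adjusted p = 0.0389). Changes near 0.2 on the log2 scale lie close to the threshold at this depth and number of samples.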
